A study of Homo sapiens with 10 samples.

Results

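The protein kinase C (PKC) isoforms described here are 8 genes, PRKCA, PRKCB, PRKCD, PRKCE, PRKCH, PRKCQ, PRKCI and PRKCZ, taken by their symbols from the 23426 gene symbols of each file. RNA was measured in MDA-MB-468, an established basal breast cancer cell line, and in ZR75-1, an established luminal breast cancer cell line. Each line was treated for 6 h with DMSO, the solvent (2 samples), or with 1 μM PKC412, midostaurin, an inhibitor of many kinases that includes PKC family members among its targets (3 samples), which gives 10 samples in all. The labels and the methods give this dose, and a figure legend of the study gives a lower one. The methods describe triplicates, of which 2 DMSO samples per line were analysed here. No transgene or genetic change was introduced, each subtype is represented by 1 line, and nothing in the labels says whether the samples of a group came from separate cultures, so p-values measure the spread between these samples only. The isoforms were compared between the lines, to see which of them each line expressed, and between the agents, to see whether their transcripts changed under a drug that acts on the proteins.

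PKCs are serine/threonine kinases that sit downstream of receptors coupled to phospholipase C. Phospholipase C splits a membrane lipid into diacylglycerol and inositol trisphosphate, and the latter releases calcium. The conventional isoforms, PRKCA and PRKCB here, respond to both calcium and diacylglycerol. The nPKC isoforms, PRKCD, PRKCE, PRKCH and PRKCQ, respond to diacylglycerol without calcium. The atypical isoforms, PRKCI and PRKCZ, respond to neither and act with PAR3 and PAR6 proteins in epithelial polarity. PKC412 binds the kinase domain, so it acts on the protein, and the data here are transcript levels.

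The values are FPKM (fragments per kilobase of transcript, scaled to the mapped fragments of the sample), which take length into account but not GC content. Levels of different isoforms are set side by side within a sample with that limit. The isoform transcripts ran from 39.1% GC (PRKCI) to 59.6% (PRKCZ), with PRKCD at 56.1%. A GC effect shared by all samples could move the order and shares of the isoforms and was not removed. FPKM summed to between 599228 and 835069 per sample, and since the number of reads behind them is unknown, precision was taken from the spread between samples. Of 8 basal markers, 6 were higher in every MDA-MB-468 sample than in every ZR75-1 sample, and TP63 overlapped and CDH3 was higher in ZR75-1. Of 9 luminal markers, 8 were higher in every ZR75-1 sample and KRT19 overlapped. The relation of FPKM to transcript GC content differed from sample to sample, and its cause was not tested. The slope of a gene's log2 deviation from its line mean ran from -0.356 to 0.373 log2 units per 10 percentage points of GC, and within MDA-MB-468 both DMSO samples (0.373 and 0.0573) lay above the 3 PKC412 samples (-0.287, -0.0240 and -0.119). In ZR75-1 the slopes were 0.314 and -0.192 in DMSO and -0.107, 0.342 and -0.356 in PKC412.

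The 8 genes are protein-coding and lie on 7 chromosomes. In GENCODE release 29 on GRCh38, PRKCQ is at chr10:6427143-6580301 on the minus strand, PRKCZ at chr1:2050470-2185395, PRKCD at chr3:53156009-53192717 and PRKCI at chr3:170222365-170305981, the last 3 on the plus strand. PRKCA (chr17:66302636-66810743), PRKCB (chr16:23835946-24220611), PRKCE (chr2:45651345-46187990) and PRKCH (chr14:61187559-61550976) are also on the plus strand. The authors aligned to hg19, so genes were matched by symbol and these positions are not those of the files. Exons of PRKCZ share 590 bases with those of FAAP20 on the opposite strand, and exons of PRKCH share 356 bases with those of TMEM30B (0.742 to 6.21 FPKM in MDA-MB-468 and 0.479 to 4.09 in ZR75-1), also on the opposite strand. Whether strand was used in counting is not given in the sources used here, so reads in these stretches may not have been told apart.

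Start-site windows are shown for PRKCQ, the isoform whose level differed most between the lines, and for PRKCZ, the most abundant isoform in both. Each runs 5′ to 3′ from 250 bases before to 50 bases after a RefSeq start on GRCh38.p14, and capitals mark CG dinucleotides, the usual site of DNA methylation. The PRKCQ window is chr10:6580597-6580896 (minus strand) and the PRKCZ window chr1:2050161-2050460 (plus strand). Both windows lie wholly upstream of the GENCODE gene starts given above, so the RefSeq and GENCODE starts differ for these genes.
PRKCQ: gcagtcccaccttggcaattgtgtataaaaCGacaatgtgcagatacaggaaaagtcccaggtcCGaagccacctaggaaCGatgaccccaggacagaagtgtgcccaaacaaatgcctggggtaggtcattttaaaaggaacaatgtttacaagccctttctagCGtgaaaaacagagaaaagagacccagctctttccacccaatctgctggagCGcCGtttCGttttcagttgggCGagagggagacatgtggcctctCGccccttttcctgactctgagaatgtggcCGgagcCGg
PRKCZ: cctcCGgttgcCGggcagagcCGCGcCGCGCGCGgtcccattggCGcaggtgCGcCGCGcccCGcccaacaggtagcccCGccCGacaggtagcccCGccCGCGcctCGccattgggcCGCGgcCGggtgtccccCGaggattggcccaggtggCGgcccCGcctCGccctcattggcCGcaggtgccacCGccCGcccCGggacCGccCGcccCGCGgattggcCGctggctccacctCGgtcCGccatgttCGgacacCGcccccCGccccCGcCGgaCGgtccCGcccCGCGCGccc
The PRKCQ window holds 11 CG dinucleotides and the PRKCZ window 47, where the median over 35116 windows of this length was 14. All 8 isoforms matched a window and together had 13, since PRKCD has 3 starts and PRKCZ has 4. None of the 13 held TGACTCA, the phorbol ester response element bound by AP-1, on either strand, and 4.95% of all windows did. A second PRKCZ window, chr1:2073414-2073713, held TGACGTCA, the cAMP response element, which was in 1.85% of all windows. GGGCGG, the GC box, occurred 10 times in the PRKCZ window shown and 0 times in that of PRKCQ, and 45% of all windows held it at least once. These matches are descriptions of sequence, and no binding or methylation was measured.

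By FPKM, both lines expressed mainly PRKCZ and PRKCD. In MDA-MB-468, PRKCZ was first with 16.5 ± 0.830 FPKM and PRKCD second with 9.14 ± 1.10 (SD, n = 5, both agents). In ZR75-1 the same isoforms led, with 25.1 ± 3.31 FPKM for PRKCZ and 18.7 ± 3.50 for PRKCD (SD, n = 5). PRKCZ was above PRKCD in every sample of both lines, with no overlap of their ranges, and PRKCD was above PRKCH in the same way. Among the 14703 genes with a mean above 0.1 FPKM in MDA-MB-468, 73.7% were lower than PRKCZ and 63.4% lower than PRKCD. In ZR75-1 it was 81.3% and 77.0% of 14313 genes.

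The order below them was less clear. In MDA-MB-468, PRKCH (2.47 ± 0.589 FPKM), PRKCQ (1.59 ± 0.268) and PRKCI (2.09 ± 1.07; SD, n = 5) followed in the order of their DMSO means, and their ranges overlapped. PRKCQ lay above PRKCI in only 1 of the 5 samples. PRKCE (0.611 ± 0.195) and PRKCA (0.570 ± 0.200) came next, with overlapping ranges although PRKCE was above PRKCA in each of the 5 samples. In ZR75-1, PRKCH (1.28 ± 0.468) and PRKCI (1.24 ± 0.720) could not be ordered, with PRKCH above PRKCI in 3 of 5 samples. PRKCA (0.313 ± 0.0939) and PRKCE (0.253 ± 0.123) were the lowest of those above 0.1 FPKM, and PRKCA was above PRKCE in all 5 samples, the opposite order to that in MDA-MB-468.

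PRKCB, a conventional isoform best known from B cell receptor signalling, was listed at or near 0 in every sample. It was listed at 0 in 1 DMSO and 1 PKC412 sample of MDA-MB-468 and in 1 DMSO and 2 PKC412 samples of ZR75-1. Its highest value in MDA-MB-468 was 0.00303 and in ZR75-1 0.0102 FPKM. It had no group mean above 0.1 FPKM, the limit the study's methods give for an expressed gene, and was the only one of the 8 isoforms that was not tested. A value near 0 in these files does not show that a gene is silent. HSP90AB1, a chaperone gene that cells in general express, was also listed near 0 in most samples, at no more than 0.00454 FPKM in ZR75-1. PRKCA was the only conventional isoform of the 8 above the limit.

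**Figure D1:**
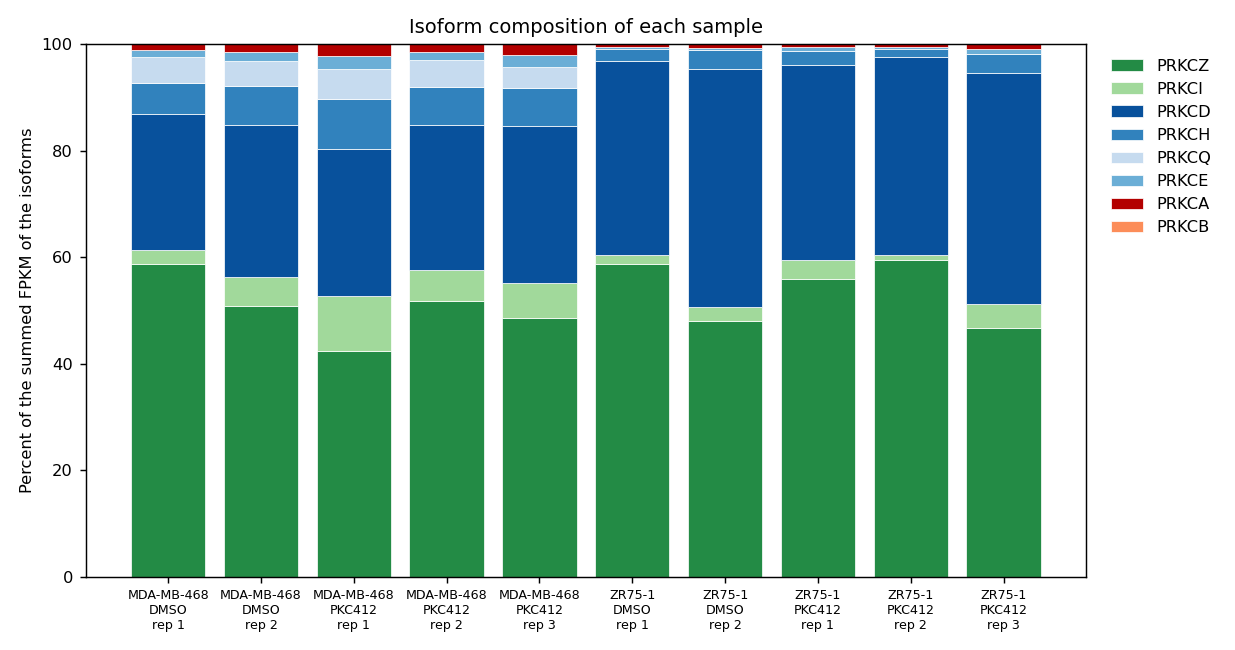
Each bar is 1 sample, and the colours give the FPKM of each isoform as a percent (axis 0 to 100) of the summed FPKM of the 8 isoforms. PRKCZ takes 42.4% to 59.4% in every sample, PRKCD takes 25.5% to 29.3% in MDA-MB-468 and 36.4% to 44.8% in ZR75-1, and the minor isoforms fill more of the MDA-MB-468 bars.

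Summed over the 8 isoforms, MDA-MB-468 had 33.0 ± 2.66 FPKM and ZR75-1 had 46.9 ± 5.45 (SD, n = 5 each), with ranges of 29.7 to 36.2 and 38.6 to 51.9 that did not overlap. The atypical isoforms made up a like share of it in both lines, 56.6% ± 3.19 and 56.3% ± 5.04, and the nPKC isoforms 41.7% ± 2.78 and 43.0% ± 4.91 (SD, n = 5). Within the classes the lines differed. PRKCD took 27.6% ± 1.46 of the sum in MDA-MB-468 and 39.7% ± 4.07 in ZR75-1, without overlap. PRKCH took 7.43% ± 1.24 against 2.71% ± 0.858, PRKCQ 4.81% ± 0.595 against 0% to 0.0520% in the single samples and PRKCE 1.82% ± 0.445 against 0.534% ± 0.229, again without overlap between the lines. PRKCA, nearly the whole of the conventional share, took 1.70% ± 0.462 against 0.664% ± 0.157. These shares are descriptions and carry no test, and a GC effect shared by the samples is not removed from them.

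Between the lines, differences were tested in limma on log2(FPKM + 1) over all 16071 genes with a group mean above 0.1 FPKM, with Benjamini-Hochberg adjustment. In DMSO, 3 of the 7 isoforms tested differed at an adjusted p under 0.05, PRKCQ being higher in MDA-MB-468 and PRKCD and PRKCZ higher in ZR75-1. Of all genes tested, 42.4% differed by the same rule, 26.5% being higher and 15.9% lower in MDA-MB-468, so the isoforms' count is near the background. In DMSO, 6 of the 8 isoforms had samples without overlap between the lines, 4 higher in MDA-MB-468 (42.3% of all genes tested) and 2 lower (27.3%). The median difference of the 7 isoforms, MDA-MB-468 minus ZR75-1, was 0.19 and that of all genes 0.11 on the log2(FPKM + 1) scale.

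PRKCQ encodes PKC theta, known for its part in T cell activation. Its FPKM in MDA-MB-468 was 1.42 and 1.46 in DMSO and 2.05, 1.58 and 1.43 in PKC412. In ZR75-1 it was 0.0201 and 0 in DMSO and 0, 0 and 0.00727 in PKC412. The lines did not overlap, and 3 of the 5 ZR75-1 samples were listed at 0. The difference in log2(FPKM + 1) was 1.27 (SE 0.109, limma adjusted p = 3.91e-05) in DMSO and 1.42 (SE 0.0892, limma adjusted p = 4.35e-06) in PKC412. With 0.1 in place of 1 as pseudocount it was 3.81 in DMSO, since adding 1 shrinks differences of low genes. PRKCQ remained past the threshold in both agents with any 1 sample left out.

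PRKCD encodes PKC delta, which takes part in apoptosis and in the response to DNA damage. The DMSO samples of MDA-MB-468 had 7.58 and 9.10 FPKM, and those of ZR75-1 14.0 and 21.9. After PKC412 the values were 9.99, 8.67 and 10.3 in MDA-MB-468 and 16.3, 19.3 and 22.1 in ZR75-1. Every ZR75-1 sample was above every MDA-MB-468 sample. The mean in ZR75-1 was 2.15-fold that in MDA-MB-468 in DMSO (difference in log2(FPKM + 1) -0.99, SE 0.224, limma adjusted p = 0.00759) and 1.99-fold in PKC412 (-0.92, SE 0.183, limma adjusted p = 0.00295). Without MDA-MB-468 DMSO replicate 1, the adjusted p in DMSO was 0.0532.

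PRKCZ encodes PKC zeta, the atypical isoform. The DMSO samples of MDA-MB-468 had 17.5 and 16.2 FPKM, and those of ZR75-1 22.6 and 23.4. After PKC412 the values were 15.3, 16.5 and 17.1 in MDA-MB-468 and 24.9, 30.8 and 23.7 in ZR75-1, so the lines again did not overlap. The mean in ZR75-1 was 1.37-fold that in MDA-MB-468 in DMSO (-0.43, SE 0.141, limma adjusted p = 0.0389) and 1.62-fold in PKC412 (-0.66, SE 0.115, limma adjusted p = 0.00147). The DMSO difference was near the threshold. It was lost in 8 of the 10 fits that left out 1 sample, where the adjusted p reached 0.174, with median-ratio rescaling of the samples (adjusted p = 0.112) and with the replicate block (adjusted p = 0.0796), while the difference in PKC412 held in each of these.

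In PKC412, 6 of the 7 isoforms tested differed between the lines, against 58.6% of all genes tested. The 4 higher in MDA-MB-468 compare with 37% of all genes and the 2 lower with 21.6%. The samples did not overlap for these same 6 isoforms, where 40.3% of all genes lay wholly higher in MDA-MB-468 and 24.2% wholly lower. The 3 isoforms called in DMSO were joined by PRKCA, PRKCE and PRKCH, each higher in MDA-MB-468. PRKCE, PKC epsilon, a diacylglycerol-responsive kinase studied for its part in cell survival and motility, had 0.853, 0.498 and 0.764 FPKM in MDA-MB-468 and 0.266, 0.183 and 0.461 in ZR75-1 (difference in log2(FPKM + 1) 0.39, SE 0.109, limma adjusted p = 0.0155). In DMSO it had 0.375 and 0.565 FPKM against 0.152 and 0.203, also without overlap (0.32, SE 0.133, limma adjusted p = 0.0913). PRKCE thus differed in the same direction under both agents, and the test passed in 1 of them.

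PRKCH, PKC eta, an isoform of differentiating epithelia, had 3.39, 2.32 and 2.53 FPKM in MDA-MB-468 and 1.21, 0.812 and 1.80 in ZR75-1 after PKC412 (difference in log2(FPKM + 1) 0.73, SE 0.223, limma adjusted p = 0.0218). In DMSO the values were 1.76 and 2.35 against 0.850 and 1.72, with a gap between the lines smaller than the spread within ZR75-1 (0.44, 95% interval -0.19 to 1.07, limma adjusted p = 0.241). PRKCA, PKC alpha, the widely expressed conventional isoform, had 0.829, 0.476 and 0.730 FPKM against 0.281, 0.258 and 0.466 after PKC412 (0.33, SE 0.0992, limma adjusted p = 0.0214). In DMSO it had 0.355 and 0.463 against 0.227 and 0.335 (0.14, 95% interval -0.14 to 0.42, limma adjusted p = 0.415). Without MDA-MB-468 PKC412 replicate 1, which held the highest value of all 3 isoforms, PRKCA, PRKCE and PRKCH were no longer called in PKC412 (adjusted p of 0.0718, 0.0545 and 0.0766) and 3 isoforms remained. Over the 10 fits that left out 1 sample, the PKC412 calls were lost in 4 for PRKCA, in 3 for PRKCH and in 2 for PRKCE. Besides that replicate these were MDA-MB-468 PKC412 replicate 3 (PRKCA 0.0675 and PRKCE 0.0519), ZR75-1 PKC412 replicate 1 (PRKCA 0.0699 and PRKCH 0.0594) and ZR75-1 PKC412 replicate 2 (PRKCA 0.0632 and PRKCH 0.0643), with the adjusted p in brackets.

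PRKCI encodes PKC iota, the other atypical isoform and a kinase of the PAR polarity complex. It overlapped between the lines under both agents. The difference was 0.19 in DMSO (95% interval -0.76 to 1.14, limma adjusted p = 0.762) and 0.62 in PKC412 (95% interval -0.16 to 1.40, limma adjusted p = 0.147). These intervals leave room for differences in either direction in DMSO.

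**Figure D2:**
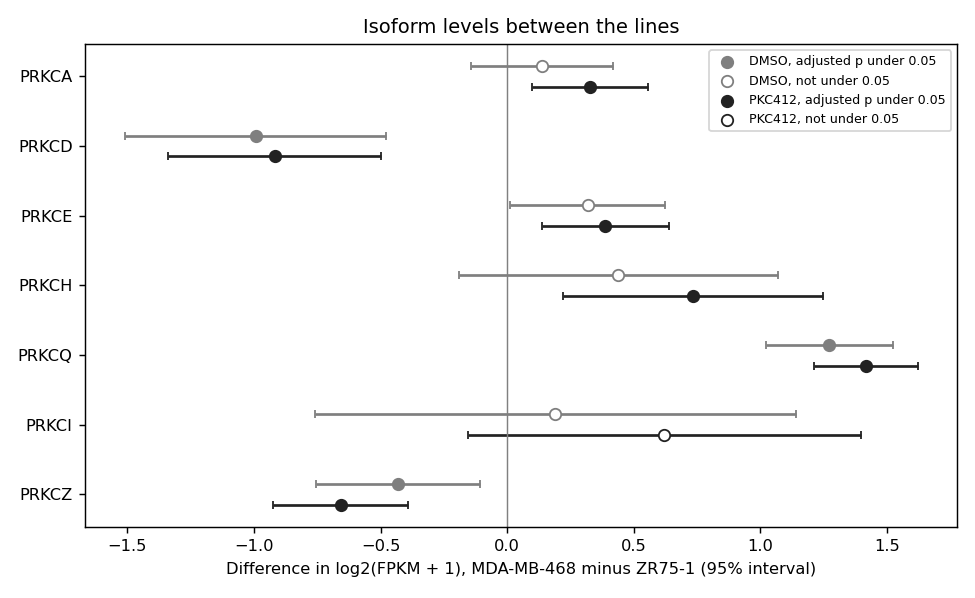
Difference in log2(FPKM + 1), MDA-MB-468 minus ZR75-1, of the 7 isoforms tested, in DMSO (grey) and PKC412 (black). Bars are 95% intervals from limma and filled points have an adjusted p under 0.05. PRKCQ lies at 1.27 and 1.42, PRKCD at -0.99 and -0.92 and PRKCZ at -0.43 and -0.66, while PRKCI is open under both agents.

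PKC412 changed none of the isoforms at the threshold. In MDA-MB-468, 0 of 7 isoforms had a limma adjusted p under 0.05, against 1.26% of all genes tested (0.691% raised and 0.566% lowered), and 0 had an unadjusted p under 0.05. The lowest adjusted p was 0.310. In ZR75-1, 0 of 7 passed, against 0.946% of all genes (0.747% raised and 0.199% lowered), with 0 at an unadjusted p under 0.05 and a lowest adjusted p of 0.650. Of the 16071 genes tested, 2635 in MDA-MB-468 and 1794 in ZR75-1 had an unadjusted p under 0.05. The median difference, PKC412 minus DMSO, was 0.21 for the 7 isoforms and 0.11 for all genes in MDA-MB-468, and 0.12 and 0.07 in ZR75-1 on the log2(FPKM + 1) scale.

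The isoforms with the widest intervals were PRKCI and PRKCH. In MDA-MB-468, PRKCI had 0.756 and 1.78 FPKM in DMSO and 3.71, 1.85 and 2.36 in PKC412. All PKC412 samples were above the DMSO samples, the lowest of them by little, and the mean was 2.08-fold higher. The difference was 0.69 (95% interval -0.18 to 1.56, limma adjusted p = 0.345). PRKCA was the other isoform with all PKC412 samples above the DMSO samples in MDA-MB-468, with a mean 1.66-fold higher (0.25, 95% interval -0.01 to 0.50, limma adjusted p = 0.310). Such a pattern, with every treated sample higher, was found in 39.6% of all genes tested in this line, and every treated sample was lower in 16.3%.

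For the other isoforms the samples of the agents overlapped in MDA-MB-468. The differences were 0.19 for PRKCD (95% interval -0.28 to 0.66), 0.21 for PRKCE (-0.07 to 0.49), 0.29 for PRKCH (-0.28 to 0.86), 0.13 for PRKCQ (-0.10 to 0.36) and -0.04 for PRKCZ (-0.34 to 0.25). The interval of PRKCZ lay within 1 log2 unit of 0, but with median-ratio rescaling it ran from -1.05 to 0.34. That of PRKCI reached beyond a rise of 1 log2 unit, and after adjustment for GC content and length it ran from -0.15 to 0.60.

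In ZR75-1, PRKCI had 0.672 and 1.24 FPKM in DMSO and 1.56, 0.479 and 2.27 in PKC412, so the treated samples lay on both sides of the DMSO samples (0.26, 95% interval -0.61 to 1.13). PRKCZ was the only isoform with all PKC412 samples above the DMSO samples, 1.15-fold in the mean (0.19, 95% interval -0.11 to 0.48, limma adjusted p = 0.650), against 14.8% of all genes with this pattern and 6.98% with the opposite one. The differences of the other isoforms were 0.06 for PRKCA (95% interval -0.20 to 0.31), 0.12 for PRKCD (-0.35 to 0.59), 0.14 for PRKCE (-0.14 to 0.42), 0.00 for PRKCH (-0.58 to 0.57) and -0.01 for PRKCQ (-0.24 to 0.22). PRKCQ sits near 0 in this line, where adding 1 hides any fold change.

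The effect of PKC412 was also compared between the lines. For 0 of the 7 isoforms did it differ, against 0.268% of all genes (0.0684% with the larger change upward in MDA-MB-468 and 0.199% downward). At an unadjusted p under 0.05 were 0 of the isoforms and 1133 of the 16071 genes tested. Limma adjusted p-values of the isoforms were between 0.951 and 0.965. The widest interval was again that of PRKCI, with an effect larger by 0.43 in MDA-MB-468 (95% interval -0.80 to 1.66), and PRKCZ was the only isoform with the larger effect in ZR75-1 (-0.23, 95% interval -0.65 to 0.19).

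**Figure D3:**
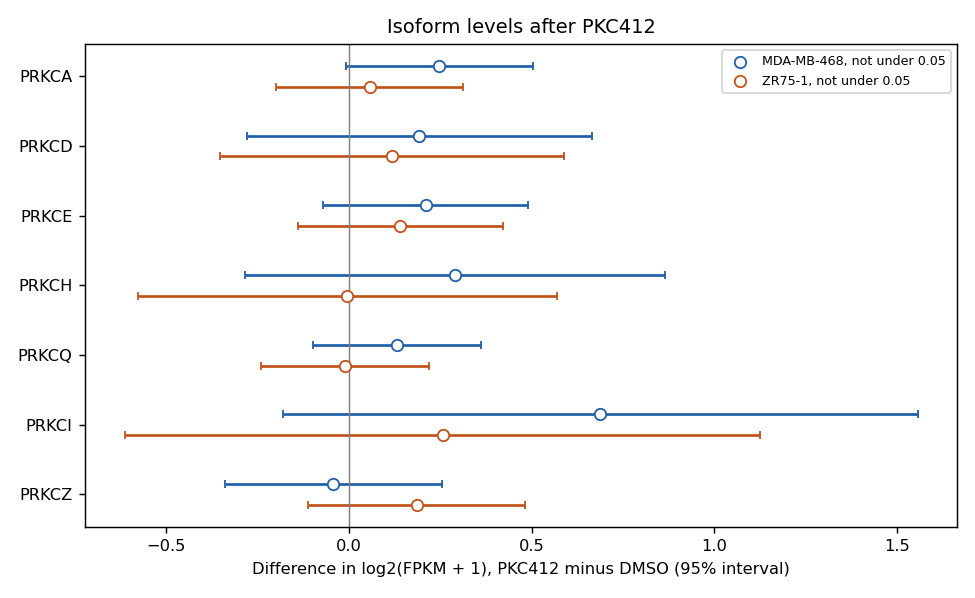
Difference in log2(FPKM + 1), PKC412 minus DMSO, of the 7 isoforms tested, in MDA-MB-468 (blue) and ZR75-1 (orange), with 95% intervals from limma. All points are open since no adjusted p was under 0.05, and the intervals of PRKCI, from -0.18 to 1.56 and from -0.61 to 1.13, are the widest.

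The levels of several isoforms within a line moved with the GC slope of the sample. PRKCI has the lowest GC content of the 8 transcripts, 39.1%, and PRKCZ the highest, 59.6%. PRKCI had its lowest FPKM of MDA-MB-468, 0.756, in the sample with the highest slope of that line (0.373), and its highest, 3.71, in the sample with the lowest slope (-0.287). In ZR75-1 its lowest value of 0.479 was in the sample with a slope of 0.342 and its highest of 2.27 in the sample with -0.356. PRKCH, at 50% GC, had its lowest and highest values in the same 4 samples. PRKCZ had its highest FPKM of each line, 17.5 and 30.8, in the sample with the highest slope (0.373 and 0.342). Its lowest value in MDA-MB-468, 15.3, was at the lowest slope of that line, but that in ZR75-1, 22.6, was at 0.314. PRKCA, PRKCE and PRKCD were lowest in MDA-MB-468 DMSO replicate 1 and ZR75-1 DMSO replicate 1 (slopes of 0.373 and 0.314). PRKCA and PRKCE were highest in the sample with the lowest slope of each line. PRKCD, at 56.1% GC, did not follow the slope throughout ZR75-1. It had 19.3 FPKM at the highest slope of that line, 0.342, and 16.3 at -0.107. Since the DMSO samples of MDA-MB-468 had the higher slopes, the agent and the GC slope move together in that line.

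With FPKM adjusted for the GC content and length of the transcripts, the PKC412 samples of PRKCI in MDA-MB-468 were 2.39, 1.86 and 1.93 and the DMSO samples 1.26 and 2.01, and the groups overlapped. The difference of PRKCA in MDA-MB-468 went from 0.25 to 0.09. No isoform was called for PKC412 after the adjustment in either line. Between the lines more isoforms were called, as were more genes overall. The adjustment was fitted to deviations from the mean of each line. It narrows the spread within a line, as for PRKCH in DMSO (SE 0.273 before and 0.144 after). A GC or length effect common to all samples of a line stays in the differences between lines. In DMSO, 6 of 7 passed, against 59.3% of all genes after the adjustment, PRKCA (0.18, adjusted p = 0.0198), PRKCE (0.38, adjusted p = 0.000898) and PRKCH (0.49, adjusted p = 0.0175) in addition to the 3 above and in the direction seen in PKC412. In PKC412 all 7 passed, against 69% of all genes, PRKCI with a difference of 0.53 (adjusted p = 0.01095).

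**Figure D4:**
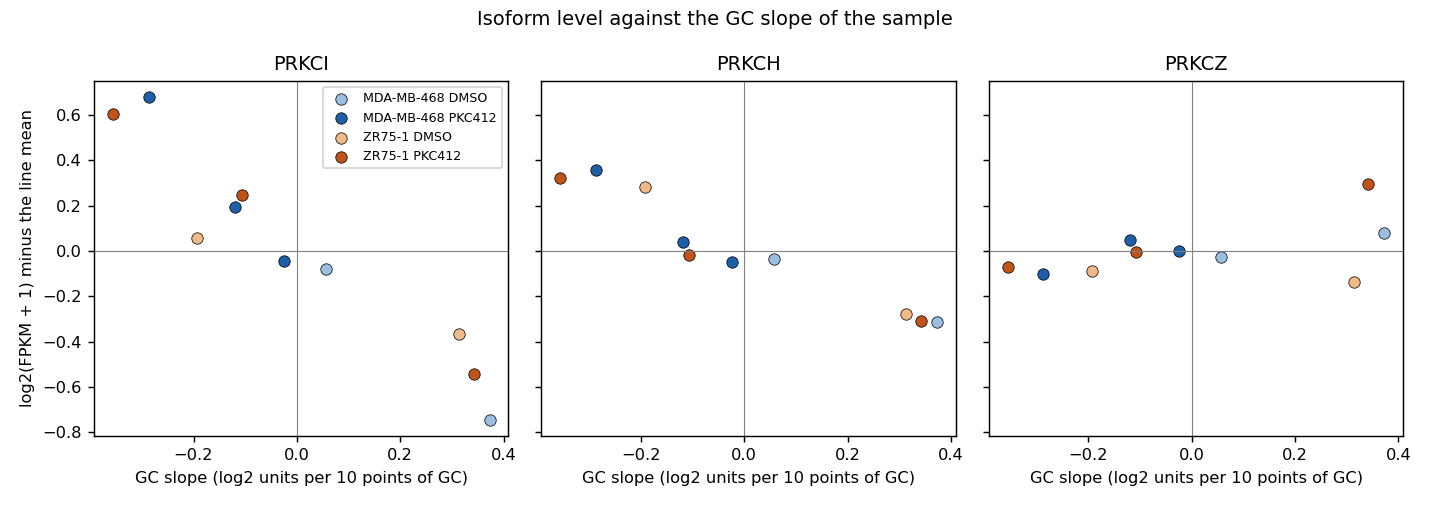
Level of PRKCI, PRKCH and PRKCZ in each sample, as log2(FPKM + 1) minus the mean of its line, against the GC slope of the sample in log2 units per 10 percentage points of GC. PRKCI and PRKCH fall from the samples with slopes near -0.3 to those with slopes above 0.3. PRKCZ does not fall, and its highest point in each line is at the highest slope (0.373 and 0.342). Its lowest point in ZR75-1 is at a slope of 0.314.

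By the likeness rule, the genes whose line-centred log2(FPKM + 1) was most like that of PRKCA, the isoform with the lowest p for PKC412, were CEP68 (Pearson r = 0.991), OSBP2 (0.985) and FAM53C (0.979), out of 9382 genes with a mean above 1 FPKM in both lines and over 10 samples. The samples share their libraries and GC slopes, so the likeness is a description.

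The kinases closest to PKC were read in the same way. PRKD2, a protein kinase D that PKC phosphorylates, was at 17.2 to 19.9 FPKM in MDA-MB-468 DMSO and 24.1 to 30.4 in ZR75-1 DMSO. It was the only 1 of 6 relatives tested that differed in DMSO (-0.52, SE 0.143, limma adjusted p = 0.0180), against 42.4% of all genes tested. This call was lost with median-ratio rescaling, and without 1 sample the difference ranged from -0.685 to -0.365. PRKD3 had a larger difference in DMSO that did not pass (1.07, SE 0.387, limma adjusted p = 0.0557). Its values were 1.74 and 3.10 FPKM in MDA-MB-468 and 0.329 and 0.917 in ZR75-1, without overlap. In PKC412 4 of 6 differed, against 58.6% of all genes tested. PRKD3 and PKN2 were higher in MDA-MB-468 and PRKD1 and PRKD2 in ZR75-1, and the samples of PKN2 overlapped between the lines. PRKD1 was listed at 0 in all 5 MDA-MB-468 samples. PKC412 changed 0 of these 6 in either line by limma. At an unadjusted p under 0.05 were 2 in MDA-MB-468 (PRKD3 and PKN2) and 1 in ZR75-1 (PRKD1), against 2635 and 1794 of the 16071 genes tested.

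Phospholipases C make diacylglycerol, and 4 of 10 tested differed between the lines in DMSO, near the 42.4% of all genes. PLCG2 (2.21, limma adjusted p = 3.32e-05), PLCB3 and PLCB2 were higher in MDA-MB-468 and PLCD3 (-2.29, limma adjusted p = 2.23e-05) in ZR75-1. Of 6 diacylglycerol kinases, which remove the lipid, DGKQ and DGKA were higher in ZR75-1 in DMSO, as were 15.9% of all genes. In PKC412, 2 of the 6 were higher in each line, DGKZ and DGKD in MDA-MB-468 and DGKQ and DGKA in ZR75-1. Of all genes, 37% and 21.6% were. By limma, PKC412 changed 0 of 10 and 0 of 6 in both lines. At an unadjusted p under 0.05 were 1 diacylglycerol kinase (MDA-MB-468) and 2 phospholipases C (ZR75-1), against 2635 and 1794 of the 16071 genes tested.

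A list of 11 genes held polarity complex genes and other partners of the atypical isoforms. In DMSO, 2 were higher in MDA-MB-468 and 5 in ZR75-1, where 26.5% and 15.9% of all genes were. The calls are not confined to PAR and LLGL proteins, since SQSTM1 is among the 5 (-0.48, limma adjusted p = 0.0161). PARD6A, a PAR6 protein that binds atypical PKC, was at 18.9 ± 2.81 FPKM in MDA-MB-468 and 56.1 ± 13.8 in ZR75-1 (SD, n = 2 each; -1.51, limma adjusted p = 0.00258). LLGL2, a polarity protein that atypical PKC phosphorylates, was at 51.2 ± 3.04 and 94.4 ± 12.5 (-0.86, limma adjusted p = 0.00539). By limma, PKC412 changed 0 of the 11 in either line, with 3 at an unadjusted p under 0.05 in MDA-MB-468 and 0 in ZR75-1. Of the 16071 genes tested, 2635 and 1794 had such a p.

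Among 12 tested substrates, 7 differed in DMSO, 5 being higher in MDA-MB-468 and 2 in ZR75-1 (42.4% of all genes differed). PPP1R14C, a phosphatase inhibitor switched on by PKC, went from 13.0 ± 1.07 FPKM in MDA-MB-468 to 0.189 ± 0.0188 in ZR75-1 (3.55, limma adjusted p = 8.94e-07), and MARCKS, the classic membrane substrate, from 7.89 ± 1.92 to 1.55 ± 1.14 (1.86, limma adjusted p = 0.00555; SD, n = 2). By limma, PKC412 changed 0 of 12 in either line, with 3 at an unadjusted p under 0.05 in MDA-MB-468 and 2 in ZR75-1. Of the 16071 genes tested, 2635 and 1794 had such a p.

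Most PKC412 calls in these lists were among genes raised by phorbol esters, which mimic diacylglycerol. The lists were chosen with earlier results of these data known, so the counts beside those of all genes are a description only. In MDA-MB-468, 1 of 16 rose and 2 fell at the threshold, which 1.26% of all genes passed. FOSL1, an AP-1 subunit, fell from 22.8 ± 0.446 (SD, n = 2) to 5.24 ± 0.248 FPKM (SD, n = 3; -1.93, limma adjusted p = 0.000609). IVL, involucrin, a keratinocyte envelope protein, fell from 10.3 ± 0.0622 to 4.06 ± 0.267 (-1.16, limma adjusted p = 0.00558), and CDKN1A, the cell cycle inhibitor p21, rose from 27.7 ± 0.772 to 60.5 ± 1.18 (1.10, limma adjusted p = 0.0104). IL8, a chemokine named here after its values were seen, went from 0.129 and 0.140 FPKM in DMSO to 5.62, 7.44 and 11.1 in PKC412 without overlap, and did not pass (2.95, SE 0.629, limma adjusted p = 0.0814). In ZR75-1, 2 of 16 rose and 1 fell, against 0.946% of all genes. FOSL1 fell from 3.38 ± 0.262 to 1.36 ± 0.130 FPKM (-0.89, limma adjusted p = 0.0224). IL6 rose at a low level, from 0.0180 ± 0.0255 to 0.826 ± 0.209 FPKM (0.84, limma adjusted p = 0.00650). ODC1 also rose (1.17, limma adjusted p = 0.0199). With median-ratio rescaling the calls of CDKN1A in MDA-MB-468 and of FOSL1 and ODC1 in ZR75-1 were lost. In MDA-MB-468 the list had a median of 0.02 (0.11 over all genes), and in ZR75-1 one of 0.03 (0.07 over all genes). Of 14 genes for the phosphorylation, folding and turnover of PKC, PRR5L, which binds the mTORC2 complex that primes PKC, was the only 1 called, rising from 3.40 ± 0.338 to 8.55 ± 0.967 FPKM in MDA-MB-468 (1.12, limma adjusted p = 0.00796).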

How the data were processed

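The authors sequenced Truseq libraries on a HiSeq2000, aligned the reads to the human genome and deposited FPKM values per gene symbol, 1 file per sample, from an in-house pipeline. The submitters' processing notes list CASAVA 1.82, TopHat2 and hg19; the annotation is not given in the sources used here. Read numbers are unknown. From the files, log2(FPKM + 1) was fitted with limma 3.58.1 (R 4.3.3; eBayes with trend, 1 mean for each of the 4 groups) for 16071 genes with a group mean above 0.1 FPKM, with Benjamini-Hochberg adjustment at 0.05, and the fit was tested on simulated data. GC content and length came from GENCODE release 29 (20638 symbols matched, 88.1%) and were fitted per sample by polynomials of degree 3; slopes used genes above 1 FPKM in every sample of a line. The members, lists and named-gene rule (all isoforms, their relatives, and at most 4 called and non-overlapping genes per list, of which some are named) were chosen with earlier results of these data known. The listed antisense genes at the isoforms' loci were not analysed here. Some related genes are not reported here. Samples with the same number were not taken as pairs. Alternatives were another pseudocount, other limits, rescaling, GC adjustment, a replicate block and each sample left out. Figures used Python 3.11.15 and matplotlib 3.10.9.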

Additional observations from a re-analysis of the deposited data

How the results depend on the processing

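The 5 comparisons kept the direction of every isoform called in DMSO or PKC412 between the lines under all alternatives. Isoforms called in DMSO numbered 3 as reported, 2 with the replicate block, 6 with the GC and length adjustment and 6 with both; without 1 sample they ranged from 1 (without MDA-MB-468 DMSO replicate 1) to 3. In PKC412 they numbered 6 as reported and 7, all those tested, with the GC and length adjustment. Without 1 sample the number in PKC412 ranged from 3 (without MDA-MB-468 PKC412 replicate 1) to 6. Median-ratio rescaling divides each sample by its median ratio over genes, so a median difference near 0 follows from how it is built. It took that median between the lines from 0.11 to 0.00 in DMSO and from 0.20 to 0.01 in PKC412. The share of called genes higher in MDA-MB-468 went from 62.5% to 52.3% and from 63.1% to 50%. In DMSO the rescaling called PRKCE (0.26, limma adjusted p = 0.0342) and not PRKCZ (-0.73). Among PKC412 calls in MDA-MB-468 it took the share raised from 55% to 38.5%.

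No isoform was called for PKC412 or its difference between the lines under any alternative. Their small values changed sign under some. With rescaling these were PRKCD (-0.105) and PRKCQ (-0.0683) in MDA-MB-468, PRKCD (-0.0784) and PRKCZ (-0.0136) in ZR75-1, and PRKCD (-0.0270), PRKCE (-0.0190) and PRKCQ (-0.0505) for the difference. With the GC and length adjustment they were PRKCQ (-0.114) and PRKCZ (0.0573) in MDA-MB-468, PRKCA (-0.0134) and PRKCD (-0.0417) in ZR75-1, and PRKCE (-0.0313) and PRKCQ (-0.0965) for the difference. The replicate block turned PRKCA in ZR75-1 (-0.0118). The block with the adjustment turned PRKCQ (-0.0419) and PRKCZ (0.0436) in MDA-MB-468, PRKCA (-0.0157) and PRKCD (-0.111) in ZR75-1, and PRKCE (-0.0304) and PRKCQ (-0.0219) for the difference. With 1 sample left out, the ranges that crossed 0 were PRKCZ in MDA-MB-468 (-0.0937 to 0.00989), PRKCA (-0.0118 to 0.118), PRKCD (-0.184 to 0.420), PRKCH (-0.282 to 0.275) and PRKCQ (-0.0252 to 0.00348) in ZR75-1, PRKCD (-0.226 to 0.378) and PRKCE (-0.0235 to 0.163) for the difference, and PRKCI between the lines in DMSO (-0.141 to 0.522). The cause was not tested.

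Over all genes, PKC412 calls in MDA-MB-468 numbered 202 as reported, 116 with a pseudocount of 0.1, 579 with the GC and length adjustment, 0 with the replicate block, 3 with both, and 65 to 324 without 1 sample. In ZR75-1 they numbered 152, 452 with the adjustment, 0 with the block, 3 with both, and 59 to 183 without 1 sample. For the difference they numbered 43, 27 with a pseudocount of 0.1, 68 without a filter, 210 with the adjustment, 0 with the block, 0 with both, and 16 to 64 without 1 sample. The block keeps few residual degrees of freedom and leaves the third PKC412 sample out of the PKC412 effects. Same-numbered DMSO and PKC412 samples had correlated deviations of -0.688 and -0.608 in MDA-MB-468 and 0.123 and -0.627 in ZR75-1 over 7685 genes. Between the lines, same-numbered DMSO samples had 0.846 (1 value, as 2 samples mirror each other) and PKC412 samples -0.249, 0.539 and -0.00688. Since not every pair was above 0.1, numbers were not taken as pairs. With the block, no PKC412 call named for FOSL1, IVL, CDKN1A, IL6, ODC1 or PRR5L was kept. FOSL1 and ODC1 in ZR75-1 lost their calls in 8 and 7 of the 10 fits that left out 1 sample, and IL6 in 1. In MDA-MB-468 CDKN1A lost its call in 3 of these fits, PRR5L in 2, and FOSL1 and IVL in 0. Where a group was left with 1 sample, it was assumed to vary like the others. With the read number unknown, no smallest detectable FPKM can be given for PRKCB or for PRKCQ in ZR75-1.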

Other observations

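Of 7 receptor kinases that are other targets of PKC412 (FLT3, KIT, PDGFRA, PDGFRB, KDR, FLT1 and FLT4), 4 passed the limit of 0.1 FPKM in a group. FLT3 was at 0.352 ± 0.129 FPKM in MDA-MB-468 and 0.419 ± 0.220 in ZR75-1 (SD, n = 5 each). FLT4, a receptor of lymphatic vessels, was listed at 0 in both MDA-MB-468 DMSO samples and was at 1.32 ± 0.0197 FPKM in those of ZR75-1 (SD, n = 2; -1.22, limma adjusted p = 5.33e-06). KDR was at 0.115 ± 0.0431 in MDA-MB-468 and listed at 0 in both ZR75-1 DMSO samples (0.16, limma adjusted p = 0.0198), a call lost in 3 of the 10 fits that left out 1 sample. PKC412 changed 0 of the 4 in either line by limma, with 0 at an unadjusted p under 0.05. Of the 16071 genes tested, 2635 in MDA-MB-468 and 1794 in ZR75-1 had such a p.

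Of 6 scaffold genes tested, 3 were higher in MDA-MB-468 and 0 in ZR75-1 in DMSO, where 26.5% and 15.9% of all genes were. WWC1, a scaffold that binds PKC zeta, was at 14.7 ± 1.86 FPKM against 3.48 ± 0.952 (SD, n = 2 each; 1.82, limma adjusted p = 0.000462), the opposite direction to PRKCZ. GNB2L1, which encodes RACK1, a receptor for activated PKC that is also part of the ribosome, was at 3166 ± 213.9 against 1827 ± 219 (0.80, limma adjusted p = 0.0148), a call lost with median-ratio rescaling and with the GC and length adjustment. Of 6 other diacylglycerol receptors, 2 were higher in each line in DMSO, against 26.5% of all genes in MDA-MB-468 and 15.9% in ZR75-1. UNC13B was at 7.26 ± 0.879 against 1.44 ± 0.159 FPKM (1.76, limma adjusted p = 0.000529) and CHN1 at 0.0789 ± 0.0232 against 3.35 ± 1.48 (-1.97, limma adjusted p = 0.00241).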
